A study of Mus musculus with 10 samples.

Results

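The genes described here are the 83 genes of the cytosolic ribosomal proteins that were counted in neurons of the paraventricular hypothalamus (PVH). They were chosen by name, from the symbols beginning Rpl, Rps or Rplp and Rpsa, and by an average of at least 1 UMI in the cells that passed quality control. Of the 48397 genes in the count table, 88 symbols matched the names and 83 passed the minimum, 48 of the large and 35 of the small subunit. The nearest member inside the minimum was *Rps3a2* with a mean of 1.41 UMIs per cell, followed by *Rpl7l1* with 9.58. The nearest symbol outside was *Rpl6l* with 0.875, and the tissue-restricted paralogues *Rpl3l*, *Rpl39l* and *Rpl10l* had 0.0992, 0.0538 and 0.00567. Of the members, 80 are annotated as protein coding in GENCODE M21, while *Rps3a2*, *Rps3a3* and *Rps4l* are annotated there as processed pseudogenes. The genes are spread over 19 chromosomes, with *Rpl10*, *Rps4x*, *Rpl36a* and *Rpl39* on the X.

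Each ribosome holds a single copy of nearly every ribosomal protein, and the acidic stalk proteins Rplp1 and Rplp2, which sit on Rplp0 and recruit elongation factors, are the known exception. The mRNAs of these proteins usually start with a short run of pyrimidines, the 5′ terminal oligopyrimidine (TOP) tract, through which mTORC1 signalling controls their translation as a group. Neuroendocrine cells of the PVH that release oxytocin or vasopressin make large amounts of secreted peptide, whose translation takes place on ribosomes bound to the endoplasmic reticulum.

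Single cells were picked by hand from the PVH of male Agrp-IRES-Cre mice crossed to the Ai9 tdTomato reporter, older than 7 weeks, and their cDNA was tagged at the 3′ end with a cell barcode and a unique molecular identifier (UMI). All mice belong to the same condition, and every group below comes from these mice. The labels describe the cells as labelled neurons, whereas the study's methods use the labelled AGRP axons to find the PVH. The 10 plates of 96 wells are the replicates, 4 with the prefix Q, 2 with AL and 4 with JM. No source used here names the animals on each plate. Where the plate is a block, p-values measure the spread left after the level of each plate is taken out. In the comparison of plate sets they measure the spread between plates. Either spread may be partly technical.

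The authors' table after quality control held 706 cells in 15 clusters, of which clusters 5, 6 and 11 are not of the PVH. The 12 PVH clusters held 664 cells. They are called here by number and by the neuropeptide gene with the highest median level: *Oxt* in clusters 1 and 12, *Avp* in 2, 3 and 4, *Sst* in 7 and 8, *Trh* in 9 and 15, *Crh* in 10, *Penk* in 14 and *Pdyn* in 13. In CPM (UMIs of the gene scaled to a common total per sum), the lead was narrow in clusters 13 and 10. The medians were 445 for *Pdyn* and 437 for *Trh* in cluster 13, and 1517 for *Crh* and 1354 for *Avp* in cluster 10. The lead was wider in the other clusters. *Pdyn* had a higher median, 581 CPM, in cluster 3. *Penk* in cluster 14 and *Trh* in cluster 15 were at 0 on their lowest plate. The PVH markers *Sim1* and *Slc17a6* were both detected in each of these 12 clusters, but not at a similar level on every plate. Their summed level fell to 1.80 CPM on the lowest plate of cluster 8 and to 7.06 CPM on that of cluster 15. The medians over plates there were 110 and 349 CPM. In each other PVH cluster the lowest plate had at least 48.9 CPM. Cells held 50646 to 1078101 UMIs. Cell barcodes come from a list of 384, and 613 cells had the same barcode as a cell of another plate. UMIs were summed per plate and cluster where at least 3 cells were present, which gave 73 sums. The clusters were drawn by the authors from these same cells and genes, so the adjusted p-values below are not independent evidence that the clusters differ.

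The pyrimidine tract was read from the RefSeq starts of the members (GRCm38.p6), of which 60 genes with 71 starts matched. A C at the annotated start followed by at least 4 pyrimidines (C or T) was found on the coding strand at 13 of 71 member starts, or 18.3%, and at 2.51% of all 32851 starts. Of the starts of mitochondrial ribosomal protein genes, 0 of 75 had such a tract. A C followed by at least 6 pyrimidines was found within 25 bases of the annotated start at 53.5% of member starts, at 22.8% of all starts and at 25.3% of the mitochondrial ribosomal protein starts. Windows from 10 bases before the annotated start to 20 bases from it are shown for 4 members with a tract and for *Rpl10* and *Rplp0*, on which several results below turn. Capitals mark the tract.
Rpl15, chr14:18270967-18270996, minus strand: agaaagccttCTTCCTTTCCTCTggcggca
Rps6, chr4:86857348-86857377, minus strand: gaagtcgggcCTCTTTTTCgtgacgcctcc
Rps10, chr17:27635225-27635254, minus strand: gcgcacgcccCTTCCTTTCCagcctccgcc
Rpl38, chr11:114668570-114668599, plus strand: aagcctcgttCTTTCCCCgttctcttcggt
Rpl10, chrX:74270806-74270835, plus strand: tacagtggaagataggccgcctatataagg
Rplp0, chr5:115559457-115559486, plus strand: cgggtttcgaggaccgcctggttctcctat
The windows of *Rpl10* and *Rplp0* hold no such tract at the annotated start, which says only that these letters are not found there.

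Ribosomal protein genes were abundant in all cells. Their UMIs made up a median of 4.37% of the UMIs of a cell, with a 10th percentile of 2.74% and a 90th percentile of 5.92%. Of the 83 members, 77 were detected in over 90% of cells. Each UMI stands for a tagged 3′ end, so levels are given as CPM (UMIs of the gene scaled to a common total per sum) of the summed UMIs and not per length. The median member had 360 CPM, and the 10 highest together took 30.4% of the members' UMIs.

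*Rpl3*, a protein of the peptidyl transferase region, was the highest with 2757 ± 409 CPM (mean and SD over 10 plates). *Rpl14* followed with 1640 ± 225 CPM, *Rpl21* with 1388 ± 359 CPM and *Rpl8* with 1352 ± 145 CPM. The levels of *Rpl21*, *Rpl8* and *Rpl10* (1312 ± 342 CPM) did not differ beyond their spread over plates. At the low end were *Rps3a2* with 13.8 ± 10.1 CPM, *Rpl39*, which lines the exit tunnel, with 53.4 ± 22.6 CPM, and *Rpl7l1* with 55.5 ± 9.99 CPM. Among paralogue pairs, *Rpl22l1* (570 ± 187 CPM) was the higher of its pair, with *Rpl22* at 87.3 ± 21.2 CPM. The reverse held for *Rps27* (356 ± 230 CPM) over *Rps27l* (82.2 ± 52.3 CPM) and for *Rpl7* (578 ± 128 CPM) over *Rpl7l1*.

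The share of UMIs from ribosomal protein genes differed between clusters within plates. In *Avp* cluster 2 it was 6.01% ± 0.80 (SD, 5 plates), in *Oxt* cluster 1 4.47% ± 0.69 (10 plates), in *Trh* cluster 15 3.29% ± 0.96 (8 plates) and in *Penk* cluster 14 3.03% ± 0.67 (8 plates). The order by mean share from high to low was 2, 9, 8, 3, 10, 4, 1, 7, 13, 12, 15 and 14, and each neighbouring pair in it differed by less than the SD over plates. The plates differed as well, from 2.85% over PVH cells on JM5 to 5.38% on Q8. The sums of at least 3 cells came from AL and JM plates alone for clusters 3, 4, 12 and 13 and from Q plates alone for cluster 8, so the share was also divided by that of the other PVH cells of the same plate.

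**Figure D1:**
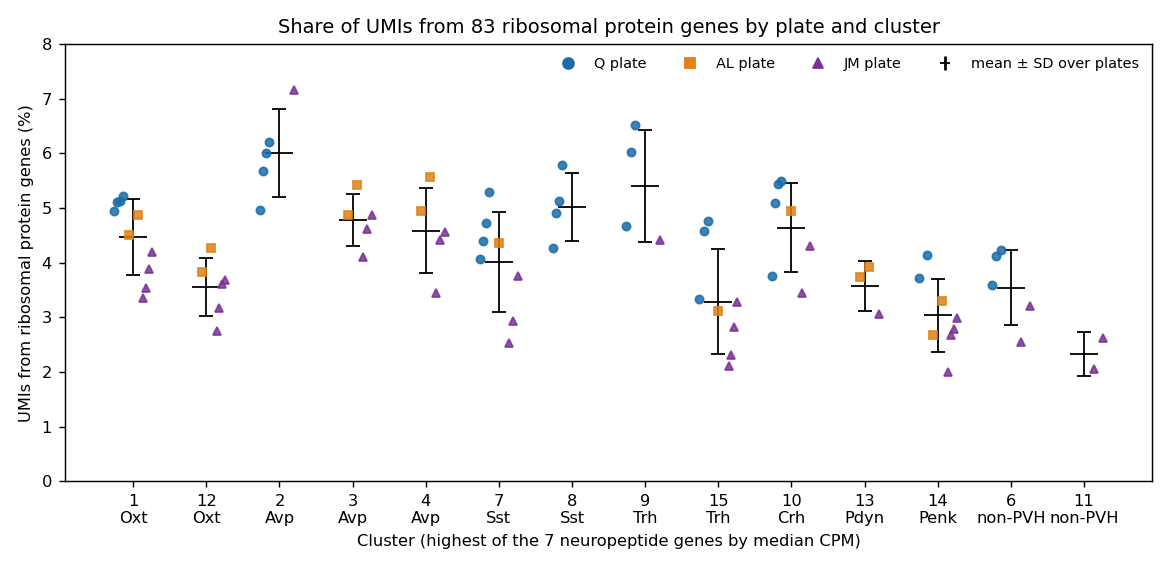
Share of UMIs from the 83 ribosomal protein genes (vertical axis, percent) in each cluster with at least 3 cells on at least 2 plates (horizontal axis). Points are plates, coloured by prefix, and black bars show the mean and SD over plates. The points of clusters 14 and 15 lie at 2.00% to 4.76% and those of cluster 2 at 4.97% to 7.15%.

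By this measure the vasopressin clusters stood high. The log2 ratio was 0.34 ± 0.32 in cluster 2, 0.30 ± 0.10 in cluster 3 and 0.29 ± 0.14 in cluster 4, and the share was higher than in the other PVH cells of the plate on 5 of 5 plates in each. The value of cluster 2 rested in part on plate JM8, whose 3 cells had a share of 7.15%, and it was 0.20 without that plate. Cluster 1 had a log2 ratio of 0.10 ± 0.16 and was higher on 8 of 10 plates. Its ratio was 0.17 on the AL and JM plates (higher on 6 of 6) and 0.006 on the Q plates (higher on 2 of 4). Cluster 14 was lower on 8 of 8 plates, with a ratio of -0.48 ± 0.14, and so was cluster 15, with -0.40 ± 0.16. The ratios of clusters 7, 8, 9, 10, 12 and 13 lay between -0.21 and 0.18. The other PVH cells differ in makeup by cluster between plates, so the ratios of different clusters have no common reference.

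Each gene was then compared between clusters with the plate as a block (edgeR quasi-likelihood test, adjusted over all genes tested). All 83 members passed the filter on low counts. Of these, 61, or 73.5%, differed among the PVH clusters at an adjusted p under 0.05, beside 20.9% of all 13082 genes tested. The fitted differences were smaller in size than those of all genes. The SD of a gene's 12 cluster terms had a median of 0.32 (log2 scale) over the members and 0.97 over all genes. It was 2.47 over all genes that passed. Members and all genes were not matched by level, which can affect both the share that passed and the SD. The largest SD belonged to *Rpl10* (0.72, adjusted p = 3.05e-21). *Rpl38* and *Rps13* had the smallest, 0.18 and 0.19, and neither passed, nor did *Rpl28*, *Rpl5* or *Rplp2*.

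**Figure D2:**
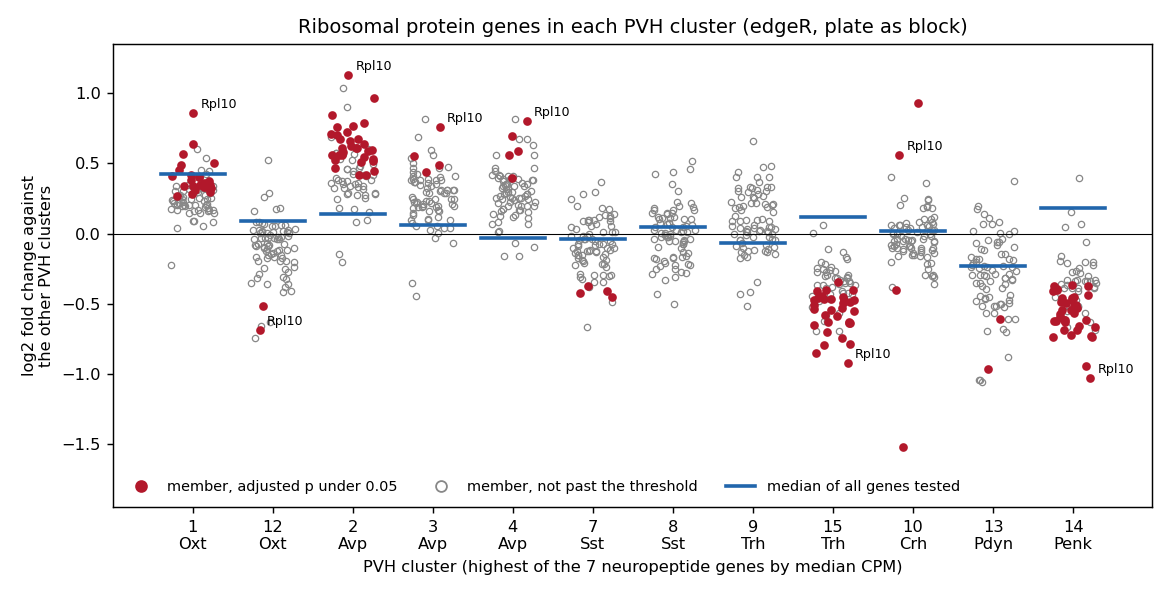
Log2 fold change (vertical axis) of each of the 83 ribosomal protein genes in a PVH cluster against the other PVH clusters (horizontal axis). Red points passed an adjusted p of 0.05, open points did not, and the blue line is the median of all 13082 genes tested. The members lie above this line in cluster 2 (median 0.47 against 0.14) and below it in cluster 14 (-0.46 against 0.18), cluster 15 and cluster 1 (0.27 against 0.42).

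In the oxytocin cluster 1, 25 members were higher than in the other PVH clusters and 0 lower, beside 10.9% higher and 0.634% lower of all genes tested. At an unadjusted p under 0.05 the counts were 48 and 0, and DESeq2 called 6 higher and 0 lower. The scale itself moved here. The median log2 fold change of all genes in cluster 1 was 0.42, and the members' median of 0.27 lay below it, with 11 of 83 members above it. With library totals in place of TMM factors the median of all genes was 0.21, that of the members 0.05, and 3 members were called higher: *Rpl10*, *Rpl3* and *Rplp0*. Leaving out plate Q5, Q6, Q7, AL5, AL6 or JM5 left 13 to 16 members called. Without the plate block 42 of 83 members, and with the AL and JM plates alone 51 of 83, lay above the median of all genes. Among the called members, the largest differences in cluster 1 were those of *Rpl10* (log2 fold change 0.86, SE 0.10), *Rplp0* (0.64, SE 0.11), *Rps26* (0.56, SE 0.13), *Rpl3* (0.50, SE 0.07) and *Rps9* (0.49, SE 0.09), each above the median of all genes. The contrasts of the 12 clusters share their sums, so that their calls are not independent of each other.

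In the vasopressin cluster 2, 32 members were higher and 0 lower, beside 1.93% higher and 0.329% lower of all genes tested. The unadjusted counts were 57 and 0, and those of DESeq2 33 and 0, while 15 were higher with library totals and 10 with limma. The members' median was 0.47 and that of all genes 0.14, with a median of 0.56 for the small and 0.42 for the large subunit. The largest among the called members were *Rpl10* (1.13, SE 0.14), *Rplp0* (0.97, SE 0.15), *Rps12* (0.84, SE 0.24) and *Rpsa*, the laminin receptor precursor (0.79, SE 0.14). The count rested on plate JM8: without it 6 members were called, among them *Rpl10* and *Rplp0*, and without Q8 or AL5 19 and 21. With the Q plates alone, 5 were called.

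The other vasopressin clusters gave fewer calls in the same direction. Cluster 3 had 4 members higher and 0 lower, beside 1.31% and 0.313% of all genes, among them *Rpl10* (0.76) and *Rpl3* (0.44). Cluster 4 had 5 higher and 0 lower, beside 0.848% and 0.176% of all genes, among them *Rpl10* (0.80), *Rps19* (0.69), *Rps23* (0.56) and *Rpl3* (0.39). With the AL and JM plates alone, which hold all sums of these clusters, the counts were 20 and 19. The member medians were 0.29 in both, against medians of all genes of 0.06 and -0.03.

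The *Penk* cluster 14 and the *Trh* cluster 15 were low. In cluster 14, 37 members were lower and 0 higher, beside 1.29% lower and 4.77% higher of all genes, and in cluster 15, 32 were lower and 0 higher, beside 0.818% and 2.9%. At an unadjusted p under 0.05, 62 and 61 were lower and 0 higher, and DESeq2 called 63 and 39 lower and 0 higher. The member medians of -0.46 and -0.43 stood against medians of all genes of 0.18 and 0.12, so that 1 and 0 members lay above the median of all genes. Without plate AL5 22 members were lower in cluster 14, and with the Q plates alone 2 were lower in cluster 15, *Rpl23* and *Rps3*. In cluster 14 the largest differences among the called members were those of *Rpl10* (-1.03, SE 0.13), *Rpl13a* (-0.94, SE 0.27), *Rps12* (-0.74, SE 0.21), *Rps15a* (-0.74, SE 0.16) and *Rps19* (-0.73, SE 0.11). *Rps19*, a small-subunit protein mutated in Diamond-Blackfan anaemia, had 131 to 640 CPM in cluster 14 with a median of 322 CPM, and 217 to 994 CPM in cluster 1 with a median of 628 CPM. These ranges overlap because the plates differ, and the fit compares clusters within plates.

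The remaining clusters gave few calls. In the *Sst* cluster 7, 4 members were lower, among them *Rplp1* (-0.38) and *Rps19* (-0.41), beside 1.88% of all genes lower, and 0 members were higher, beside 3.16%. In *Oxt* cluster 12, *Rpl10* (-0.69) and *Rplp0* (-0.52) were lower than in the other PVH clusters, beside 0.405%, and 0 members were higher, beside 1.92%. In *Pdyn* cluster 13, *Rpsa* (-0.97, SE 0.21) and *Rpl3* (-0.61, SE 0.14) were lower, beside 0.183%, and 0 were higher, beside 0.344%. With library totals 0 members were lower in cluster 13 (*Rpsa* -0.80, adjusted p = 0.054), with limma or totals without neuropeptide genes 1 was, and with DESeq2 5 were. The median of all genes there was -0.23, and -0.06 with library totals. In *Crh* cluster 10, *Rpl10* (0.56) and *Rps4l* (0.93) were higher, beside 2.74%, and *Rplp1* (-0.40) and *Rps27l* (-1.52) lower, beside 1.05%. In *Sst* cluster 8 and *Trh* cluster 9 edgeR called 0 members, beside 0.688% and 1.81% of all genes higher and 0.0229% and 0.986% lower. The unadjusted counts there were 1 higher and 0 lower in cluster 8 and 4 higher and 1 lower in cluster 9, and DESeq2 called 0 members in cluster 8 and 3 higher in cluster 9.

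Depth and the levels of markers of other cell types differed between some of these clusters, not always in the same order on shared plates. The oxytocin cluster 1 had a mean of 232003 UMIs per cell (averaged over plates) and the vasopressin cluster 2 had 245768, whereas cluster 14 had 137403 and cluster 15 had 108120. These means cover different plates. On the plates shared by clusters 2 and 14, the mean was 252845 against 282989 on Q5, 311034 against 269881 on Q7 and 71185 against 125216 on JM8. The summed levels of 5 oligodendrocyte markers were 3.75 to 35.5 CPM in cluster 1, 33.1 to 79.8 CPM in cluster 2, 0 to 66.6 CPM in cluster 14 and 0 to 127 CPM in cluster 15, with 2 or 3 of the 5 markers at 0 in each. The 5 astrocyte and 5 microglia markers had medians under 1 CPM in these 4 clusters. The part of depth and of these cells in the results was not tested. UMIs of the members per UMI of the ERCC spike-ins gave other ratios than the share of UMIs. The log2 ratios to the other PVH cells were 0.74 and 0.21 for clusters 1 and 2. They were -0.57 and -0.86 for clusters 14 and 15. Clusters 8 and 10 were also low on this scale, with -0.75 and -0.92, beside ratios of shares of -0.04 and 0.01. The remaining clusters lay between -0.41 and 0.34.

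*Rpl10* stood apart from the other members. It encodes a large-subunit protein that joins late in assembly, near the peptidyl transferase centre, and lies at chrX:74270812-74273135 on the plus strand (GRCm38, ENSMUSG00000008682). In cluster 1 it had 979, 1185, 1066 and 1391 CPM on plates Q5 to Q8, 1828 and 2185 CPM on AL5 and AL6, and 1612, 1835, 2183 and 1758 CPM on JM5 to JM8. In cluster 14 it had 359 and 342 CPM on Q5 and Q7, 494 and 580 CPM on the AL plates and 418, 894, 838 and 879 CPM on the JM plates. In cluster 15 the 8 plates lay between 180 and 955 CPM with a median of 642 CPM. No plate of clusters 14 and 15 reached the lowest plate of cluster 1.

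*Rpl10* also differed between the *Oxt* clusters. On the 6 AL and JM plates, cluster 12 had 649 to 1076 CPM of *Rpl10* and cluster 1 had 1612 to 2185 CPM. The vasopressin clusters 3 and 4 had 1937 to 2479 CPM and 1547 to 2682 CPM on plates of these sets, and cluster 10 had 688 to 2102 CPM. In cluster 2 the Q plates had 1054, 1092, 1060 and 1770 CPM, and JM8 had 4013 CPM, the highest of all sums. The log2 fold change of *Rpl10* in cluster 1 lay between 0.56 and 0.91 under every alternative run and without each plate in turn, and passed in each. Symbols of *Rpl10* pseudogenes held UMIs equal to 10.9% of its own, and how reads shared between them were counted is not given in the sources used here.

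**Figure D3:**
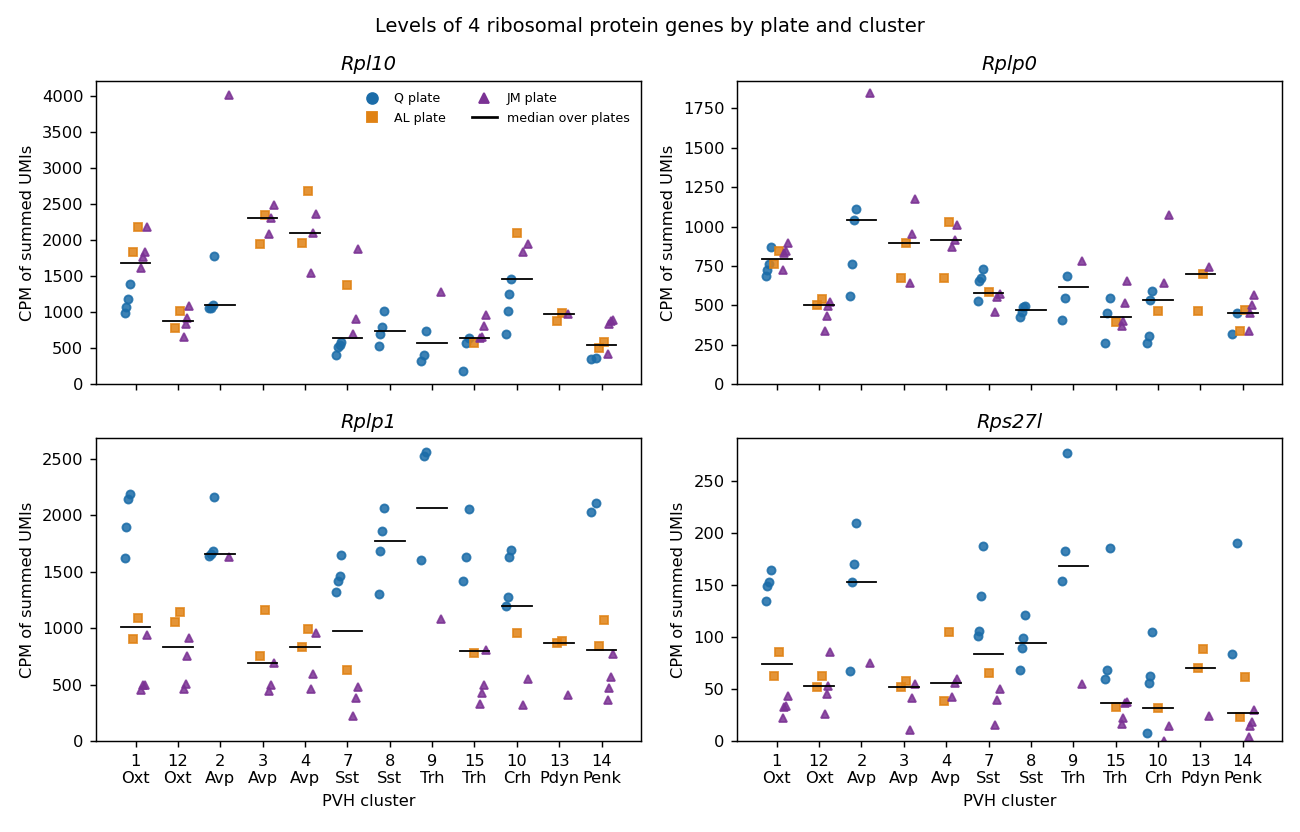
Levels of *Rpl10*, *Rplp0*, *Rplp1* and *Rps27l* (vertical axes, CPM of summed UMIs) in each PVH cluster (horizontal axes). Points are plates, coloured by prefix, and lines are medians over plates. *Rpl10* is at 979 CPM or more on every plate of cluster 1 and at 955 CPM or less on every plate of clusters 14 and 15, and *Rplp1* is higher on Q plates than on the others within cluster 1.

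Of the stalk genes, *Rplp0* had 685 to 897 CPM with a median of 797 CPM in cluster 1, 316 to 567 CPM with a median of 448 CPM in cluster 14 and 261 to 652 CPM with a median of 427 CPM in cluster 15. Its ranges in clusters 14 and 15 lay below that of cluster 1, and its log2 fold changes there were -0.57 (SE 0.13, adjusted p = 0.0021) and -0.58 (SE 0.13, adjusted p = 0.0025). *Rplp1* was higher in cluster 1 (0.34, SE 0.08, adjusted p = 0.00083) and did not pass in clusters 14 and 15, with 0.05 (SE 0.09) in cluster 14 and -0.17 (SE 0.09) in cluster 15. In cluster 14 *Rplp1* had 2033 and 2113 CPM on the Q plates and 365 to 1078 CPM on the others. *Rplp2* did not pass in any cluster, with log2 fold changes of 0.23 (SE 0.12) and 0.28 (SE 0.18) in clusters 1 and 2 and of -0.34 (SE 0.15) and -0.30 (SE 0.15) in clusters 14 and 15. Whether the fold changes of these 3 genes differ from each other was not tested.

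To see which members changed relative to the rest, the sums were scaled to the summed UMIs of the 83 members, an alternative chosen after seeing the data. On this scale 8 members differed among clusters, beside 27% of all genes: *Rpl10*, *Rplp1*, *Rpl28*, *Rplp0*, *Rps19*, *Rps13*, *Rps15* and *Rps4l*. *Rpl10* was higher in clusters 1 (0.56, SE 0.09), 2 (0.65, SE 0.13), 3 (0.45, SE 0.13), 4 (0.48, SE 0.13) and 10 (0.59, SE 0.11). It was lower in clusters 9 (-0.63, SE 0.16), 12 (-0.57, SE 0.13), 14 (-0.57, SE 0.11) and 15 (-0.48, SE 0.11). *Rplp0* was higher in cluster 1 (0.34, SE 0.11). *Rplp1* was higher in clusters 12 (0.38, SE 0.10), 14 (0.52, SE 0.08) and 15 (0.29, SE 0.08) and lower in cluster 10 (-0.38, SE 0.09), and *Rpl28* was higher in clusters 14 (0.54, SE 0.16) and 15 (0.50, SE 0.16). For *Rpl10*, 8 of these 9 clusters also passed on the TMM scale, the exception being cluster 9 (-0.52, adjusted p = 0.104), while the differences of *Rplp1* and *Rpl28* in clusters 14 and 15 passed on this scale and not on the other.

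**Figure D4:**
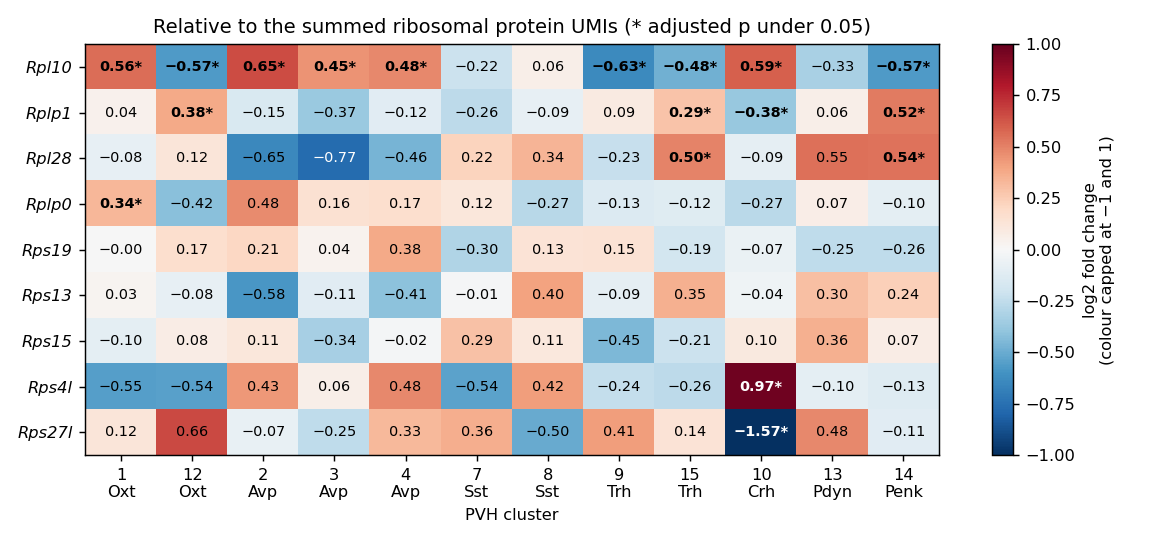
Log2 fold changes (colour and printed value) of the 8 members that differed among clusters when each sum was scaled to its UMIs from the 83 members, with *Rps27l* added (rows), in each PVH cluster (columns). Stars mark an adjusted p under 0.05. *Rpl10* is starred in 9 of the 12 clusters, 5 with positive and 4 with negative values.

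*Rps27l*, the paralogue of *Rps27* known as a target of p53, had the largest difference of any member in a comparison of clusters. In *Crh* cluster 10 it had 62.9, 105, 7.5 and 55.7 CPM on plates Q5 to Q8, 31.9 CPM on AL5, 0 on JM6 and 15.04 CPM on JM8. In cluster 1 it had 165, 153, 150 and 135 CPM on the Q plates, 62.8 and 86.0 CPM on the AL plates and 22.1 to 43.1 CPM on the JM plates. Cluster 10 was lower on each plate that held both. The log2 fold change was -1.52 (SE 0.39, adjusted p = 0.0095), and it did not pass without the filter on low counts (adjusted p = 0.067), without the plate block (0.36), or on Q plates (0.24) or AL and JM plates (0.27) taken separately. It passed with DESeq2 and with limma. *Rps27* itself was 0.40 (SE 0.15) in cluster 10 and did not pass. *Rps4l*, an annotated pseudogene of *Rps4x*, had 202 to 516 CPM there against 100 to 167 CPM in cluster 1, and since its sequence is close to that of *Rps4x* its counts are uncertain.

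The plates were compared within cluster 1, where the makeup of clusters cannot differ. Depth did differ: the mean UMIs per cell of cluster 1 were 331332 to 569497 on the Q plates. They were 85967 to 192238 on the AL and JM plates, without overlap. On the 4 Q plates 47 members were higher than on the 6 AL and JM plates and 6 were lower, beside 6.59% higher and 4.43% lower of all 11885 genes tested. The members' median log2 fold change was 0.81 and that of all genes -0.02. *Rps28* had 156, 146, 136 and 70.5 CPM on the Q plates and 16.2 to 36.8 CPM on the others, without overlap, a log2 fold change of 2.48 (SE 0.30, adjusted p = 3.8e-05). *Rpl41*, the shortest member, had 1498, 1262, 1097 and 808 CPM on the Q plates and 143 to 392 CPM on the others (2.32, SE 0.28). *Rpl37* (2.20, SE 0.30), *Rpl38* (2.07, SE 0.32) and *Rps29* (2.07, SE 0.30) followed. The lower members were *Rps3a2* (-3.04, SE 0.59), *Rps4x* (-0.70, SE 0.12), *Rpl19* (-0.59, SE 0.15), *Rpl10* (-0.50, SE 0.14), *Rpl7* (-0.47, SE 0.14) and *Rpsa* (-0.46, SE 0.13), and without plate Q5 or Q6 3 of 83 were lower.

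These differences between plates followed the coding length of the members. Over 80 members with a coding length, which ranged from 78 to 1260 nt, Spearman's rho between length and the log2 fold change was -0.84, and over 10342 other genes it was -0.09. These genes share the libraries, and the values are a description. Of the 19 members up to 360 nt long, 18 were higher on Q plates, with a median of 1.63. Of the 38 members over 360 and up to 600 nt, 25 were higher and 1 lower, with a median of 0.84, and of the 23 longer members 4 were higher and 4 lower, with a median of 0.10. Other genes of the same length ranges had medians of 0.66, 0.26 and -0.09, and 37.9%, 18.7% and 3.85% of them were called higher on Q plates. The contrasts between clusters, which are taken within plates, had a rho with length of 0.30 and 0.04 for clusters 1 and 2 and of -0.02 and -0.18 for clusters 14 and 15. Sequencer, read length and library kit are named differently by the labels and the methods. Their part in the difference between plates, and that of depth, was not tested.

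**Figure D5:**
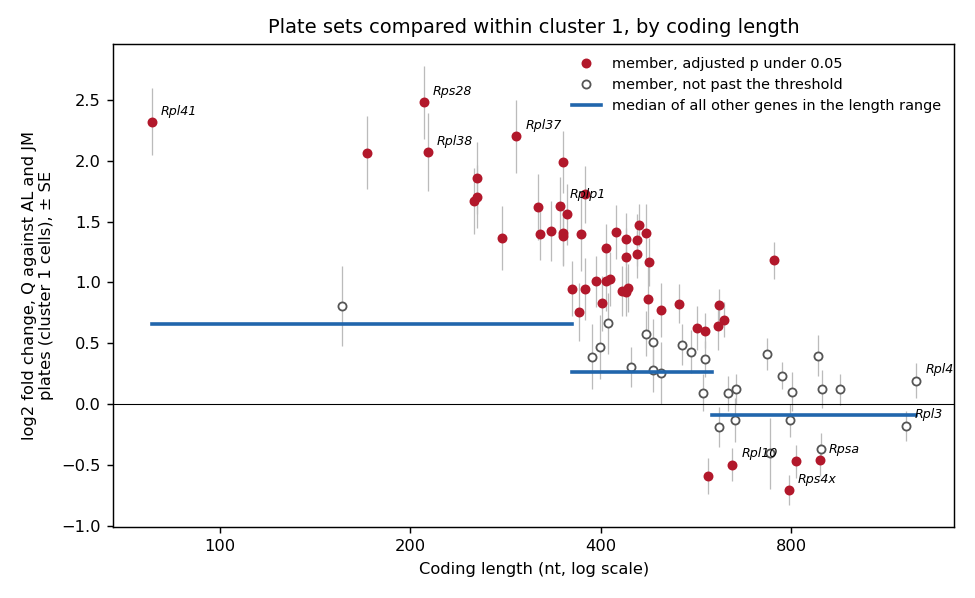
Log2 fold change of Q against AL and JM plates within cluster 1 (vertical axis, with SE) against coding length in nt (horizontal axis, log scale) for 80 ribosomal protein genes. Red points passed an adjusted p of 0.05, and blue lines give the median of all other genes in the same range of length. The members fall from 2.32 at 78 nt (*Rpl41*) to 0.19 at 1260 nt (*Rpl4*).

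Whether the cluster 1 difference itself differed between the plate sets was tested with an interaction term. Cluster 1 was set against a pooled sum of the other PVH cells of each plate. The makeup of that sum differed between the plate sets, as clusters 4, 12 and 13 had cells on AL and JM plates alone. The term can therefore also hold differences in that makeup. EdgeR and DESeq2 called 0 of 83 members, beside 0.00697% of all 14341 genes in each direction. At an unadjusted p under 0.05, 0 members were higher and 1 was lower, *Rps18* (-0.32, SE 0.15). The median interaction over the members was -0.09 and that over all genes 0.07, with SEs of 0.10 to 0.67 for single members, which limit the size of a difference that 10 plates can show. For *Rpl10* the interaction was -0.12 (SE 0.15).

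Other genes of protein synthesis were counted with the same fit, and their counts stand beside the shares of all genes given above, 10.9% higher in cluster 1, 1.93% higher in cluster 2, and 1.29% and 0.818% lower in clusters 14 and 15. Of 4 tested ribosomal protein genes outside the naming rule, *Fau* (0.29), *Rpl36al* (0.83) and *Rack1* (0.56) were higher in cluster 1, *Fau* (0.59) and *Rpl36al* (0.85) in cluster 2, and *Fau* (-0.50) was lower in cluster 14 and *Rpl36al* (-0.59) in cluster 15. *Rpl36a*, the paralogue of *Rpl36al*, was 0.30 (SE 0.14) in cluster 1 and did not pass. Of 20 genes of targeting and translocation into the endoplasmic reticulum, 7 were higher in cluster 1, 6 in cluster 2, and 5 were lower in each of clusters 14 and 15, with medians of 0.36, 0.58, -0.46 and -0.37. *Sec61b*, a subunit of the translocon, was 0.73, 0.97, -0.90 and -0.77 in clusters 1, 2, 14 and 15, and *Sec11c*, a signal peptidase subunit, was 0.83 in cluster 1.

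Of 38 initiation genes, 5 were higher in cluster 1, 0 in cluster 2 and 0 in cluster 15, and 1 was lower in cluster 14, with medians of 0.33, 0.13, -0.03 and 0.08. *Eif4ebp1*, the mTORC1-regulated inhibitor of cap binding, was 5.66 in cluster 1 and was the largest of that list. Of 11 elongation and termination genes, 2 were higher in cluster 1 and 2 lower in each of clusters 14 and 15, and these were *Eef1g* (0.69, -0.38 and -0.60) and *Eef1a1* (0.51, -0.92 and -0.75). Of 10 other genes known to have a TOP mRNA, 5 were lower in cluster 14, and *Gas5* (-0.88) was lower in cluster 15 and higher in cluster 2 (0.95). *Tpt1* (0.58) and *Npm1* (0.36) of that list were higher in cluster 1. Of 28 genes of ribosome biogenesis, 1 was higher in cluster 1, *Nop10* (0.50), and 0 passed in clusters 2, 14 and 15. Of 76 mitochondrial ribosomal protein genes, 5 were higher in cluster 1, led by *Mrps26* (1.68), 1 in cluster 2 and 1 in cluster 14, and 1 was lower in cluster 15, with medians of 0.28, 0.06, 0.11 and 0.00. Of these 76 genes, 27 were higher on Q plates within cluster 1 and 0 lower, beside 6.59% and 4.43% of all genes in that comparison. Their median there was 0.49, and they were not matched to other genes by length. Of 15 mTORC1 pathway genes, 0 passed in clusters 1, 2, 14 and 15.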

How the data were processed

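The authors deposited raw UMI counts per gene and well, without normalization, raw counts of ERCC spike-ins, and a table of cells after quality control with cluster numbers. The submitters' processing notes name STAR 2.5.3a, Trimmomatic 0.36 and GRCm38.p5. Read counting and the handling of reads shared with pseudogenes are not given in the sources used here. Counts were used as deposited and summed per plate and cluster where at least 3 cells were present. Sums held 183707 to 14997184 UMIs. SDs cover the spread between plates, and SEs of fits with the plate as a block cover the spread left after it.

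Clusters were compared with edgeR 4.0.16 under R 4.3.3 (TMM, filterByExpr, quasi-likelihood F test, plate as block, Benjamini-Hochberg over all genes), each PVH cluster against the mean of the other PVH clusters with at least 3 plates in 1 joint fit. The dispersion trend was estimated on every 4th gene by abundance and interpolated. Q and AL and JM plates were compared within cluster 1, and their interaction with the cluster 1 difference was tested on 2 sums per plate, cluster 1 and the other PVH cells. The fits were tested on simulated data. Alternatives were DESeq2 1.42.0, limma 3.58.1 on log2(mean CPM + 1), other scalings, filters, blocks and sizes of the sums, either set of plates alone, and leaving out each plate. The member genes' share of UMIs has no test. Sums and figures used Python 3.11.15, numpy 2.4.6, pandas 2.3.3 and matplotlib 3.10.9. Gene positions and coding lengths are from GENCODE M21 and starts from RefSeq.

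The members and lists were chosen with earlier results of these data known. Named genes were the 10 members with the largest and the 5 with the smallest SD of cluster terms, up to 10 called members in cluster 1, the leading called member in each direction in other clusters, 5 in each direction between plate sets, the 5 highest and 5 lowest levels, those nearest the minimum, paralogue pairs, the stalk genes, *Rpsa* and *Rps4x*, and the leading called gene of each list in cluster 1. Genes named in addition, among them *Eef1a1*, *Sec61b* and other counts of 5 or fewer, were chosen after their values were seen. Single values of some members are not reported here. Clusters 5, 6 and 11 were left out of the tests, as they were taken here as not of the PVH.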

Additional observations from a re-analysis of the deposited data

How the results depend on the processing

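Of the 61 members that differed among clusters, 11 were called with the Q plates alone and 52 to 60 without single plates. When scaled to the members' UMIs, 8 were called. That scaling takes out any shift shared by the members, so its counts cannot show how far such a shift depends on the processing. The 25 members called higher in cluster 1 became 6 with DESeq2, 6 with totals without neuropeptide genes, 6 without the plate block, 3 with library totals, 3 with limma, 3 with the Q plates alone, 2 when scaled to the members' UMIs and 13 to 23 without single plates, and the count called lower was 0 in each of these. Over the other 11 clusters, the 43 calls higher became 68 with DESeq2, 26 with library totals, 19 with limma and 12 when scaled to the members' UMIs. The 79 calls lower became 120, 44 without the plate block and 8 when scaled. These totals were not computed where clusters drop out or without single plates, where clusters 2, 14 and 15 were computed: 6 to 32 higher, 22 to 39 lower and 24 to 35 lower. On Q plates the 47 calls higher were 40 to 51 and the 6 calls lower 3 to 6 without single plates, 1 with the JM plates alone and 3 without a filter. No cause was tested.

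Per ERCC UMI, the log2 ratio of the members' UMIs to the other PVH cells of the plate was 0.74, -0.75, -0.22, -0.92, 0.024, -0.41 and -0.86 in clusters 1, 8, 9, 10, 12, 13 and 15. The ratio of shares was 0.90 in cluster 2 on its 1 AL or JM plate (JM8), and -0.28 in cluster 13 when neuropeptide genes were left out of the total. Without single plates the ratios of shares were 0.08 to 0.13 in cluster 1, 0.20 to 0.40 in 2, 0.27 to 0.34 in 3, 0.24 to 0.33 in 4, -0.15 to -0.08 in 7, -0.11 to -0.01 in 8, 0.14 to 0.25 in 9, -0.01 to 0.07 in 10, -0.13 to -0.06 in 12, -0.25 to -0.18 in 13, -0.49 to -0.44 in 14 and -0.44 to -0.38 in 15.

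Genes not called in cluster 1 changed sign with the scaling. With library totals, *Rpl21* (-0.022), *Rpl22l1* (-0.023), *Rpl38* (-0.054), *Rps3a2* (-0.062) and *Rpsa* (-0.033) were negative, with limma they were -0.023, -0.028, -0.020, -0.0054 and -0.030, and *Rps3a2* was -0.031 with DESeq2. Scaled to the members' UMIs they were -0.10, -0.10, -0.14, -0.14 and -0.12, with *Rpl39* (-0.053), *Rpl8* (-0.056), *Rplp2* (-0.076) and *Rps27* (-0.024). Of the other values of named genes, 1065 kept their side of the threshold, 169 lost it and 7 gained it. The plate was a block in each comparison between clusters, except in the run named as without the plate block.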

Other observations

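Of the clusters taken as outside the PVH, 6 and 11 had sums of at least 3 cells. Cluster 5 had 1 cell on each of 4 plates, with shares of 2.93% to 5.45%. In cluster 11, which had 1043 CPM of *Slc17a6* (median of 2 plates) and *Sim1* at 0, the share was 2.05% on JM6 and 2.62% on JM8, below the share of the other clusters with at least 3 cells on those plates. In cluster 6, where the median of *Gad2* was 776 CPM, the share was 3.54% ± 0.69 (SD, 5 plates). The means of PVH clusters 14 and 15 were lower but cover other plates. On the shared plates JM6, JM8, Q5 and Q7, cluster 6 had 2.56%, 3.22%, 4.12% and 3.59%. There cluster 14 had 2.67%, 2.99%, 4.13% and 3.71%, and cluster 15 had 2.31%, 3.27%, 4.76% and 3.33%. *Rpl10* had 423 and 677 CPM in cluster 11 and 549 to 863 CPM in cluster 6, under the lowest plate of cluster 1.

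Among the cells of cluster 1 the shares of the large and the small subunit rose and fell together. Pearson's r between them across the cells of a plate was 0.43 to 0.96, with a median of 0.79 over 10 plates. The members' share and the log of the cell's total UMIs had an r of -0.57 to 0.55, with a median of 0.01. Cells of a plate share its library, and these are descriptions.

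The small-subunit members had 0.57 ± 0.07 times the UMIs of the large-subunit members in cluster 1 (SD, 10 plates), 0.67 ± 0.03 times in cluster 2 (5 plates) and 0.52 ± 0.03 times in cluster 12 (6 plates). The ratio differed between plate sets within cluster 1, at 0.63 to 0.66 on Q plates and 0.49 to 0.55 on AL and JM plates. Cluster 12 has sums on AL and JM plates alone (0.48 to 0.55) and cluster 2 has 4 of its 5 on Q plates, so that these means also differ by plate. The 274 symbols of ribosomal protein pseudogenes held UMIs equal to 2.27% of those of the members. For 17 members the share was over 5%, led by *Rpl10a* (28.5%), *Rpl13a* (27.1%) and *Rpl39* (14.2%). Dixon's test, which marks about 1 in 20 groups by chance, was applied to 54 groups of plates and marked 0.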
